A study of Mus musculus with 22 samples.

Results

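The 83 genes described here carry the symbols of cytosolic ribosomal proteins or of their paralogs. They were chosen by symbol alone, as Rpl, Rps, Rplp or Rpsa followed by the usual protein number, from the 23453 symbols of the count table. The large subunit accounted for 51 of them and the small subunit for 32. RNA had been amplified from 22 single mouse astrocytes, glial cells of the cortex grown in primary culture from single C57BL/6 pups of postnatal day 0 to 1, which had been shaken and treated with cytosine arabinoside to remove other cells. Every cell had been exposed to ethanol (EtOH) during calcium imaging, with ATP as the reference stimulus closing an experiment, and was drawn into a glass pipette. Its type is the shape of its calcium signal. The 6 S-type cells gave a slow rise and slow decay, the 6 T-type cells a transient rise, the 5 M-type cells a mixture, and the 5 NR cells were non-responsive. No cell was left without EtOH, so the 4 types differ in response and not in treatment. The sources name neither the animal nor the culture of a cell, so each type stands for 1 sample and no test between types was possible. Cells are named below by type and a number that carries no order and pairs nothing.

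A ribosome is built from RNA and many different proteins, most of them in a single copy, and the genes for these proteins are among the most strongly transcribed of a growing cell. Their mRNAs start with a C followed by a run of pyrimidines (the 5′ terminal oligopyrimidine or TOP motif), through which mTOR signalling controls their translation. A few proteins have a further gene, a paralog, whose expression is restricted or regulated. Because ribosomal protein mRNAs have been copied into the genome many times as processed pseudogenes, reads of these genes are also among the hardest to place.

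The start sites are shown first because they carry the motif that this gene class is known for. The windows below run from 25 bases before to 15 bases from the annotated start base (RefSeq, GRCm38.p6), on the strand of the gene, and capitals mark the uninterrupted pyrimidine run that holds the start base. The first 4 are member genes with such a run, and the last 4 are members without one, among them a member with a wide relative spread between cells (Rps23) and the paralog whose share varied most (Rpl22l1).
Rps18, chr17:33955651-33955690, minus strand: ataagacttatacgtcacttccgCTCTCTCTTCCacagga
Rpl28, chr7:4792940-4792979, plus strand: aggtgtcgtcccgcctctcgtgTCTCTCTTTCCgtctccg
Rps6, chr4:86857353-86857392, minus strand: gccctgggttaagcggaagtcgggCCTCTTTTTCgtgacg
Rps27, chr3:90213634-90213673, minus strand: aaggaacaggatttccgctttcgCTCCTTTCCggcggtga
Rps23, chr13:90923097-90923136, plus strand: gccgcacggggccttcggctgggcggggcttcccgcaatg
Rps4x, chrX:102189377-102189416, minus strand: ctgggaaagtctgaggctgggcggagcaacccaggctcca
Rpl36a, chrX:134585629-134585668, plus strand: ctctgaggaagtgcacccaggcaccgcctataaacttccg
Rpl22l1, chr3:28805483-28805522, plus strand: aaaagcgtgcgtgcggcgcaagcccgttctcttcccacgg
Of the members, 63 had an entry in the promoter table, with 75 start sites in all. A pyrimidine run of 5 or more bases beginning at the start base stood at 21.3% of these sites, against 4.4% of the 32851 sites of all genes. A C at the start base was found at 29.3% of the member sites and at 16.3% of all sites. Searched on both strands in the 300 bases from 250 before to 50 after the start, the pyrimidine stretch CTCTTTCC was in 17.3% of the member windows against 3.1% of all windows. The ETS-type motif CCGGAAG was in 36.0% against 8.9%, and the YY1-type motif AAGATGG in 16.0% against 6.3%. The letters AAG at the end of CCGGAAG can also begin AAGATGG, and each motif was counted on its own. The shares describe annotated sites, which need not be the sites used in these cells.

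The libraries held between 2937786 and 22131076 reads in genes, with a median of about 16970000, and between 6319 and 13070 genes with a read. T-type libraries overlapped the others in the number of genes with a read but had the lowest mean. They held a mean of 8796 genes with a read, while S-type libraries held 11160, M-type 11020 and NR 11090, and T-type cell 2 (6319 genes) and T-type cell 3 (7442 genes and the smallest library) had the fewest. All 12 astrocyte markers looked for had reads. Vim, Slc1a3 and Aqp4 were read in 22 of 22 cells, while Aldoc was read in 21 and S100b in 16. Of the reads of a cell the 12 together made up 0.91% to 2.06% in T-type, 1.16% to 1.95% in M-type, 0.50% to 2.02% in NR and 0.50% to 1.75% in S-type. Microglial markers made up at most 0.0147% of the reads of any cell, and endothelial markers, of which Cldn5 had no read, at most 0.02%. The highest cell had 0.333% for the oligodendrocyte lineage (T-type), 0.208% for neurons (S-type) and 0.741% for mural cells and fibroblasts (S-type). Col1a2, on this last list, was read in 19 cells. The part of all these markers in the results below was not tested. Levels in the text are read counts divided by the size factor of the cell. The size factor is the depth of a cell relative to the others, from the median ratio over the 3670 genes read in every cell. The level of a type is the mean over its cells. Over the 22 cells Vim had a mean level of 123700 and Slc1a3, the next of the astrocyte markers, 15100, so the marker share rests largely on Vim.

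Ribosomal protein genes took 1.74% to 8.09% of the reads of a cell. The share was 5.44% ± 1.70 (SD between cells, n = 6) in T-type, from 3.19% to 7.97% with a median of 4.94%, and 4.77% ± 2.01 (n = 5) in M-type, with cells at 8.09%, 4.76%, 3.84%, 2.71% and 4.46%. It was 3.68% ± 0.928 (n = 6) in S-type, from 2.58% to 5.21% with a median of 3.63%, and 3.27% ± 1.43 (n = 5) in NR, with cells at 1.74%, 3.30%, 2.54%, 5.57% and 3.17%. The 4 types overlapped, the highest NR cell lying above 4 of the 6 T-type cells, and the highest of all 22 cells was M-type cell 1. Counting error is negligible beside this spread: the exact 95% interval of the smallest library, T-type cell 3, ran from 3.17% to 3.21%, and like all intervals given here it covers counting error only, since reads copied from 1 molecule during amplification could not be told from reads of different molecules. Across the 22 cells the share had a Spearman correlation of 0.12 with the total reads and of -0.33 with the number of genes with a read, given as a description of cells that differ in depth and type.

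**Figure D1:**
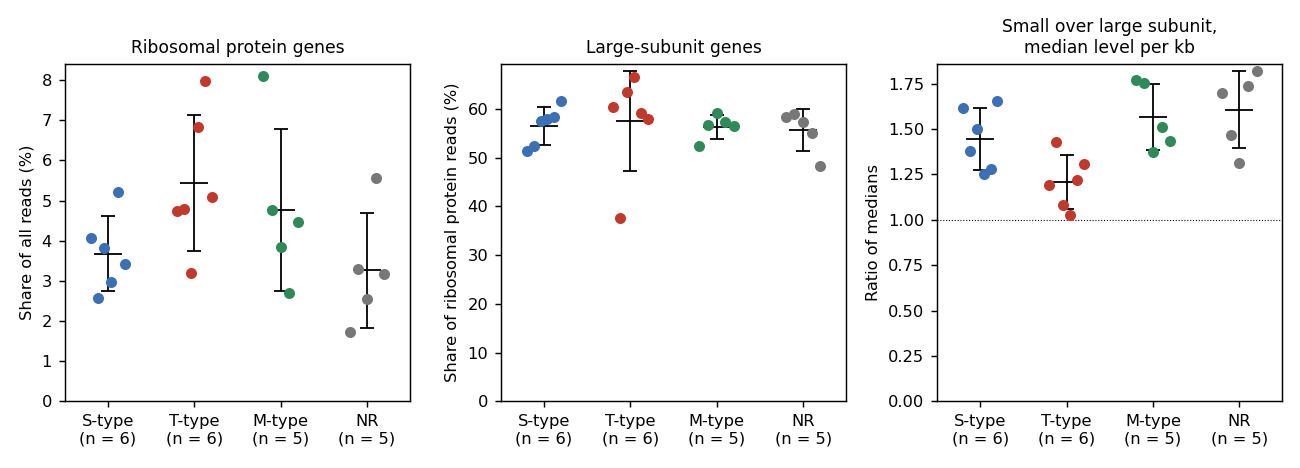
Each point is 1 cell, grouped by response type, with the mean and SD between cells in black. The left panel gives ribosomal protein genes as a share of all reads (%), the middle panel large-subunit genes as a share of ribosomal protein reads (%), where T-type cell 2 lies alone at 37.7%, and the right panel the ratio of the median level per kb of small-subunit to large-subunit genes, which was lowest on average in T-type (1.21).

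Gene by gene, 77 of the 83 members had a read in all 22 cells and 80 in at least 5 cells, the minimum for entering a comparison. Levels per kb of the principal transcript spanned from 40710 for Rps4x to below 10 for Rpl26. In the large subunit the 3 highest were Rplp1, an acidic stalk protein (31710 per kb), Rpl7 (31660 per kb) and Rpl17, at the polypeptide exit (19580 per kb). The 3 lowest that entered a comparison were the paralog Rpl7l1 (300.1 per kb), Rpl30 (130.4 per kb) and Rpl26 (9.93 per kb). In the small subunit Rps4x, the X-linked member (40710 per kb), Rps23, at the decoding centre (26480 per kb), and Rps18, in the head of the subunit (21860 per kb), were highest. These means include T-type cell 2, where the levels were 316100, 258100 and 117600 in that order. Ranks per kb without that cell were not computed. Rpsa, also known as a laminin receptor (2082 per kb), Rps15 (1220 per kb) and Rps27 (22.8 per kb) were lowest. The amplification starts from the poly(A) tail, so a level per kb depends on the annotated transcript end as well. Rps20, for example, had 3247 per kb over an annotated principal transcript of 3706 bases.

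**Figure D2:**
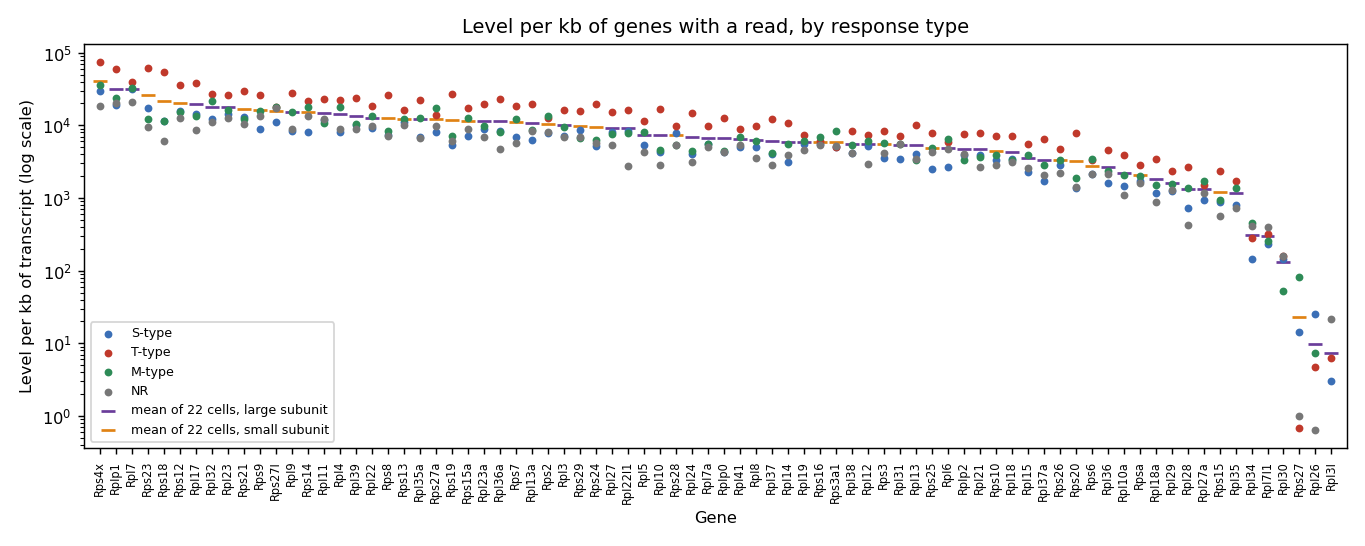
Level per kb of transcript (log scale) of members with a read, in order of the mean over 22 cells (bar, coloured by subunit), with the mean of each response type as a coloured point; a type without a read has no point. Most members lie above 1000 per kb, and Rpl34, Rpl7l1, Rpl30, Rps27, Rpl26 and Rpl3l fall away at the right.

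The median small-subunit gene had a higher level per kb than the median large-subunit gene in every cell. The ratio of the 2 medians in a cell was 1.61 ± 0.21 (n = 5) in NR, with cells at 1.70, 1.47, 1.31, 1.74 and 1.82, and 1.57 ± 0.18 (n = 5) in M-type, with cells at 1.77, 1.75, 1.38, 1.51 and 1.43. It was 1.45 ± 0.17 (n = 6) in S-type, between 1.25 and 1.66 with a median of 1.44. T-type gave 1.21 ± 0.15 (n = 6), between 1.02 and 1.43 with a median of 1.20. The subunits were closest to each other in T-type, where 4 of the 6 cells lay below the lowest S-type cell and cell 2 was the highest. Large-subunit genes held 57.5% ± 10.2 of the ribosomal protein reads in T-type, 56.5% ± 3.88 in S-type, 56.3% ± 2.47 in M-type and 55.6% ± 4.31 in NR. T-type cell 2 was the exception at 37.7%, where Rps23 alone made up 11.8% of the ribosomal protein reads, against 1.07% to 6.92% in the other 21 cells.

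The members had lower coefficients of variation (SD over mean) across the 22 cells than genes at large. The median was 0.72 for the 78 members read in at least 5 cells whose mean level reached 10, against 1.48 for the 11551 genes that did so. Rpl3l, with a mean level of 10.2 from 4 cells and a coefficient of 3.23, is left out here and from later counts at that level. Among genes whose mean level reached 1000 it was 0.71 for 74 members and 1.00 for 2846 genes. Rpl7 (0.42), Rps16 (0.46), Rps13 (0.48) and Rpl22 (0.51) were among the 5 that varied least. Rps23 (2.15), Rps18 (1.96), Rps20, in the head of the small subunit (1.68), Rps19, mutated in Diamond-Blackfan anaemia (1.68), and Rps4x (1.59) varied most. These were all highest in T-type cell 2. Rps4x had a level of 316100 there, against 11910 to 69920 in the other cells, and Rps23 had 258100 there, against 3609 to 47890. Levels are divided by the size factor, which was 0.276 in T-type cell 2 and 1.60 in M-type cell 1. T-type cell 2 had 87165 Rps4x reads of 12564138 in all, and M-type cell 1 had 111772 of 20652035. Without T-type cell 2 the highest coefficient among small-subunit members was 1.10.

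**Figure D3:**
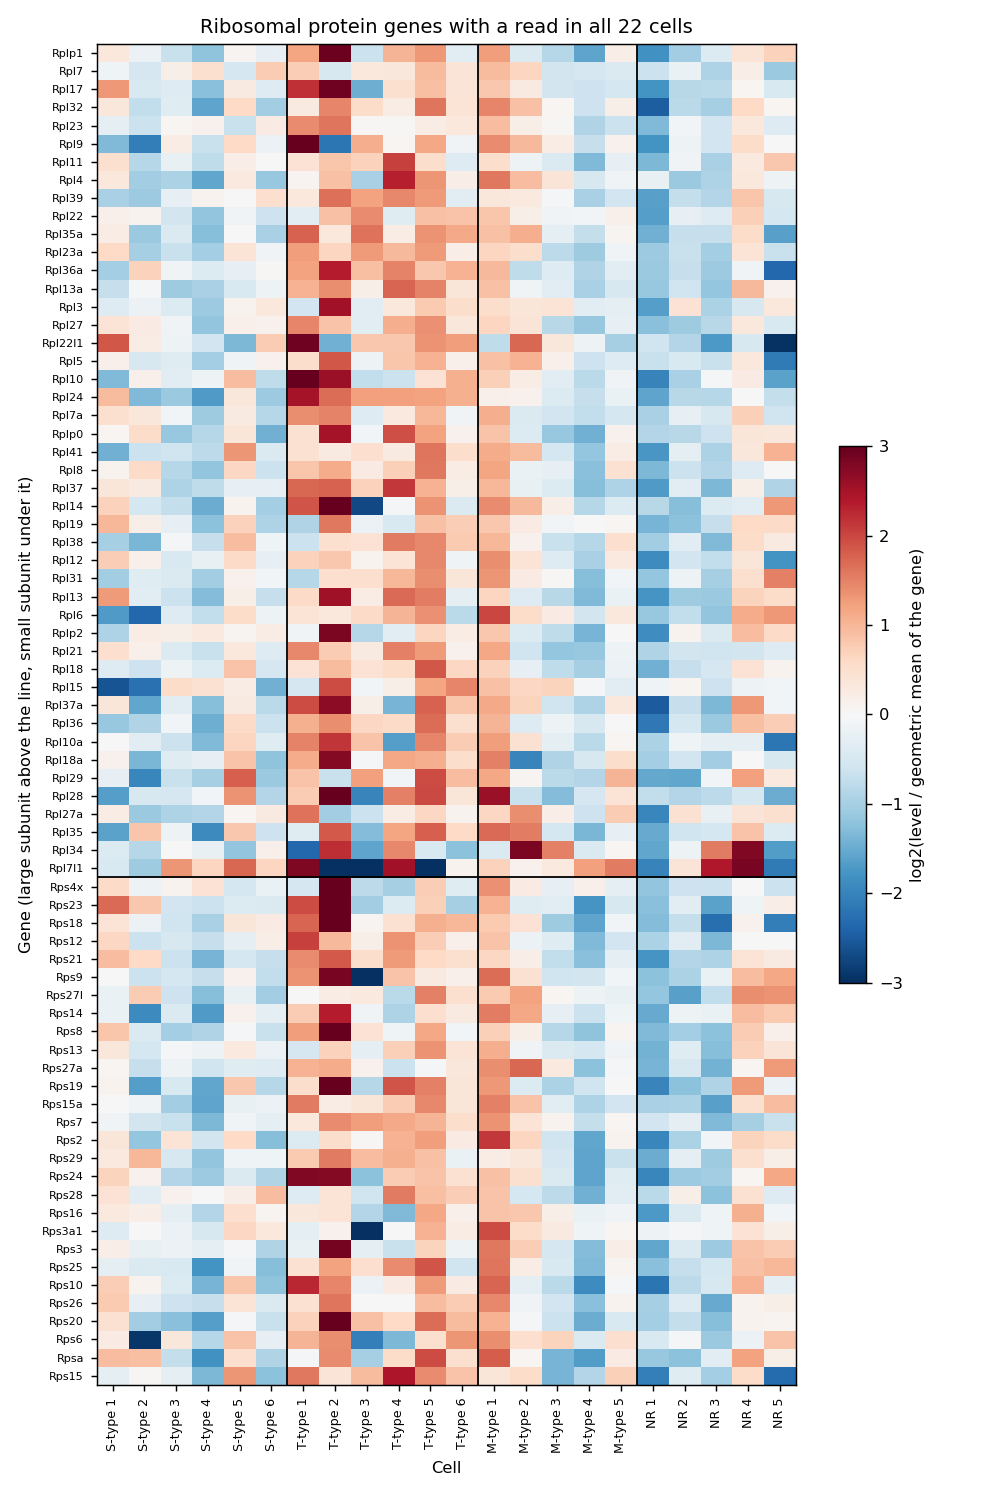
Colour gives the log2 of the level of a gene (row) in a cell (column) over the geometric mean of that gene, with the large subunit above the horizontal line and the small subunit under it, and vertical lines between the response types (S-type, then T-type, M-type and NR). T-type columns are mostly red, T-type cell 2 most strongly, and M-type cell 1 is red against the other M-type cells.

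In T-type against NR, ribosomal protein genes were higher almost throughout. Of 79 members with a ratio, 75 were higher and 4 lower, and the median log2 ratio of the levels was 1.26, against -0.07 for all genes. At least 2-fold higher were 49 members, or 62% of them, where 28.4% of the 12508 genes tested were, and no member was at least 2-fold lower, where 32.8% of all genes were. Among members whose mean level reached 10, the 3 largest log2 ratios were those of Rps18, 3.17 (3.15 to 3.19, 95% counting interval), Rps23, 2.70 (2.69 to 2.71), and Rpl28, 2.65 (2.60 to 2.70). At the other end stood Rpl34, at -0.58 (-0.72 to -0.44), and the paralog Rpl7l1, at -0.29. Without T-type cell 2 Rpl34 was at -1.33, at least 2-fold lower, and Rpl7l1 at 0.03. That cell also bore on the 3 largest ratios. Rps18 had a level of 117600 in that cell and 6987 to 21990 in the other T-type cells, against 2678, 4001, 1372, 7243 and 1556 in NR, and its log2 ratio without the cell was 2.01. Rps23 gave 1.08 and Rpl28 1.93 without it, and Rps4x 0.40 in place of 1.98. Over all members the median without T-type cell 2 was 1.09, with 44 members at least 2-fold higher. Without T-type cells 2 and 3, the cells with the fewest genes, it was 1.20 with 50 such members. The shares of all genes at least 2-fold higher and lower were not computed with these cells left out.

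These values depend on the scale. The mean size factor was 0.804 in T-type, against 1.24 in S-type, 1.88 in M-type and 1.51 in NR. On counts scaled to the total reads of each cell (CPM) the median log2 ratio of the members was 0.74 and that of all genes -0.46. The median of the members thus lay 1.20 above that of all genes on CPM and 1.32 above it with size factors. The number higher was 67 of 79, and 27 members (34.2%) were at least 2-fold higher, where 19.2% of all genes were. Rpl34, at -1.415 on CPM, was at least 2-fold lower, and the share of all genes lower in this way was not computed on CPM. Rpl27a, Rpl30, Rplp2, Rps14, Rps16, Rps27a and Rps27l were among the members higher with size factors that turned lower on CPM or with TMM factors, another scaling by library composition.

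In all T-type cells 8 of the 79 members were higher than in any NR cell, or 10.1%, where 0.192% of the genes tested were. None was lower in all T-type cells, where 0.815% of all genes were. They were Rpl8, near the peptidyl transferase centre, Rpl21, Rpl24, in a bridge between the subunits, Rpl36a, at the tRNA exit site, Rps7, Rps12, Rps20 and Rps21. Rps20 had levels of 11700, 99760, 13350, 10980, 23160 and 14100 in the T-type cells. In NR it had 3572, 4420, 3003, 7821 and 7747, so the groups stood apart also without T-type cell 2, and the log2 ratio was 2.44 (2.42 to 2.46) with that cell and 1.51 without it. For Rps7, which also binds the p53 regulator Mdm2, the T-type cells gave 11090, 23830, 21390, 19740, 17940 and 12930. The NR cells lay at 5965, 7415, 3574, 4481 and 5596, all below the lowest T-type cell, with a log2 ratio of 1.72 (1.70 to 1.74). Rpl24 had levels of 19160, 10830, 7958, 8001, 7865 and 7177 in T-type. The NR values of Rpl24 were 1138, 1926, 1868, 3451 and 2072, so that the highest NR cell was below the lowest T-type cell, and the log2 ratio was 2.28. The T-type cells lay between 5249 and 13600 for Rpl8, with NR at 1785 to 4560, and between 8024 and 20930 for Rpl21, with NR at 3921 to 5680. The gap was narrow for Rps12, at 11090 to 41240 against 3884 to 10100, and for Rps21, at 7428 to 19080 against 1562 to 7059. Without T-type cells 2 and 3 the number of members apart from NR was 18 (22.8%), where 0.964% of all genes then stood apart and higher. Without NR cell 4 it was 23 (29.1%), where 0.468% of all genes did.

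Rpl36a was the member whose separation held both with size factors and on CPM. It did not hold as a fraction of ribosomal protein reads, the measure described below. Its T-type levels were 9792, 21600, 7931, 11850, 7396 and 8718. NR had 1958, 2644, 2000, 3952 and 834.3 and S-type 2107 to 6809 with a median of 3752, while M-type had 8374, 2481, 3257, 2256 and 3379. On CPM its T-type cells had 447.2, 474.0, 494.9, 989.1, 591.9 and 762.6, its NR cells 161.9, 262.2, 184.7, 350.8 and 50.9, and its highest S-type cell 440.9. It was the 1 member of 79 to stay apart from NR on CPM, where 0.016% of the genes tested did, and likewise the 1 of 80 against S-type, where again 0.016% did. The M-type cell 1 reached into the T-type range on both scales. Of the 75-base windows of its transcript, 84.6% also occur in other annotated transcripts, mostly of a pseudogene (Rpl36a-ps2), so its reads are among those that could be divided between loci.

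Against S-type, T-type cells were higher in 77 of 80 members, with a median log2 ratio of 1.13, against -0.09 for all genes. At least 2-fold higher were 48 members (60%), where 25.7% of the 12517 genes tested were. The 2 members at least 2-fold lower, where 32.5% of all genes were, are Rpl26 and Rps27, both near 0 in all cells. Rps20 (2.50), Rps19 (2.34) and Rps18 (2.25) had the largest log2 ratios. Without T-type cell 2 these were 1.58, 1.36 and 1.09, below Rpl9 (2.11), Rpl24 (1.92) and Rpl10 (1.89). No T-type cell overlapped the S-type cells for 6 members (7.5%), where 0.128% of all genes stood higher in this way. None was lower in this way, against 0.655% of all genes. Of the 6, Rpl24, Rpl36a, Rps7 and Rps20 were also apart from NR, in a comparison that uses the same T-type cells. The remaining members were Rpl13a, known for leaving the ribosome to silence inflammatory mRNAs, and Rps15a. Rpl13a had 10560 to 31280 in T-type, with a median of 21970, and 4429 to 8937 in S-type, with a median of 6315, but NR cell 4 reached 18380. Rps15a had 7112 to 17880 in T-type and 2035 to 6016 in S-type, but NR cell 4 reached 8500 and NR cell 5 reached 11470. Without T-type cell 2 the median over all members was 1.00. The median of the small subunit was then 0.73 in place of 1.15, and that of the large subunit 1.06 in place of 1.11. On CPM 14 members (17.5%) were at least 2-fold higher, where 16.6% of all genes were, so on that scale their share was near that of all genes, although their median log2 ratio, 0.60, still stood above the -0.46 of all genes.

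**Figure D4:**
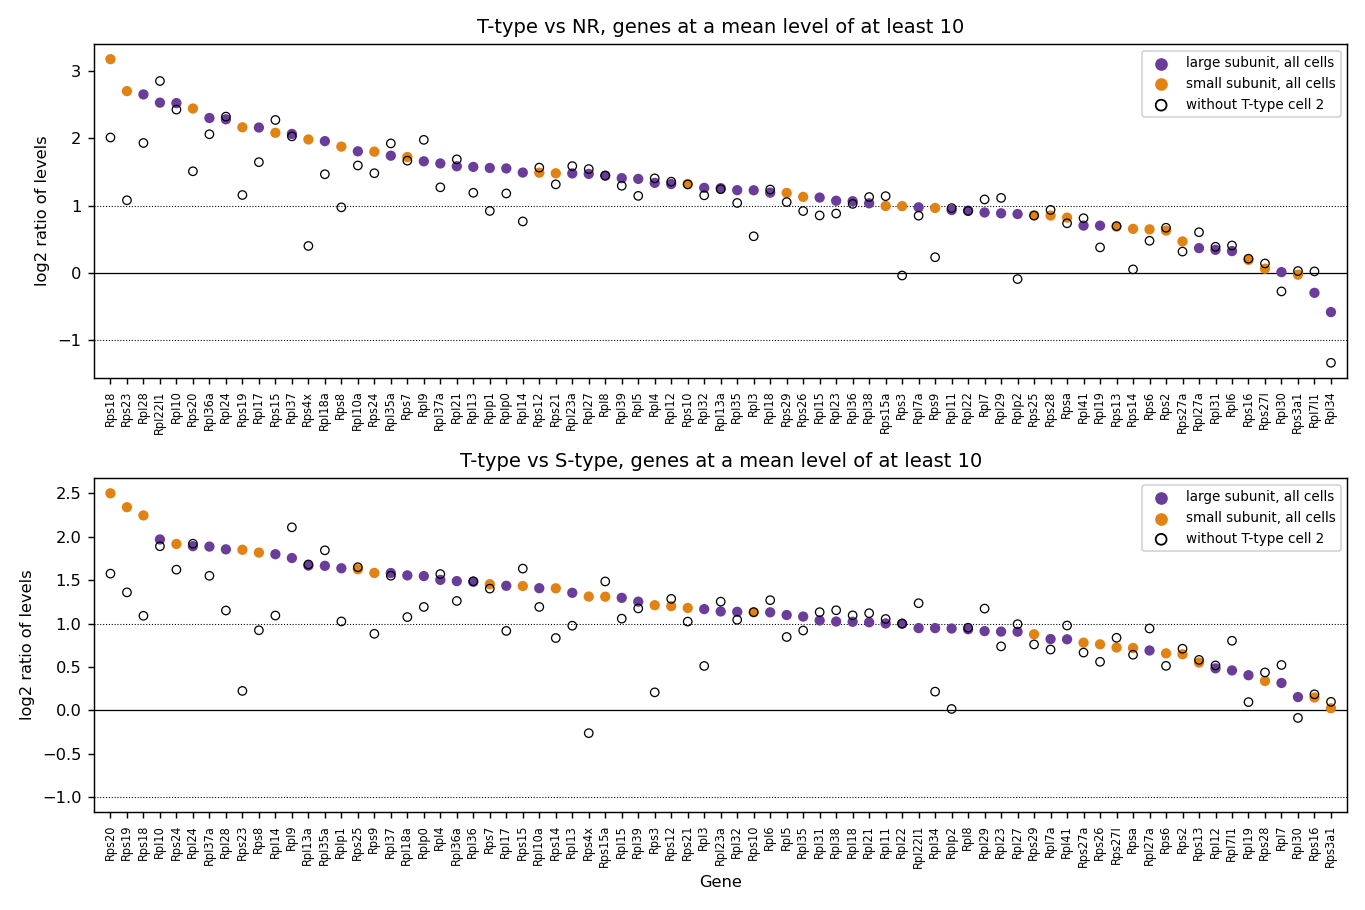
Log2 ratio of the level in T-type over NR (top) and over S-type (bottom) for members at a mean level of at least 10, in order of size, coloured by subunit, with open circles for the ratio without T-type cell 2. Dotted lines mark 2-fold, and the open circles fall farthest for small-subunit genes such as Rps18, Rps23 and Rps4x.

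In S-type against NR the members were divided. The median log2 ratio of the 80 members was 0.09, with 46 higher and 34 lower, against 0.03 for all genes, and with TMM factors 39 were higher and 41 lower. The 3 members at least 2-fold higher (3.75%, where 25.1% of the 12621 genes tested were) were Rpl22l1, at 1.58 (1.55 to 1.61), and the barely detected Rpl26 and Rps27. Rpl34 was the 1 member at least 2-fold lower (1.25%, where 22.5% of all genes were), at -1.53 (-1.65 to -1.40). Its NR levels were 38.8, 103.8, 337.3, 783.5 and 36.2 and its S-type levels 50.2 to 126.9 with a median of 92.1, so the groups overlapped, with NR cells 3 and 4 above every S-type cell. Rps18 was at 0.93, and Rpl6 (-0.80) and Rps25 (-0.77) followed among the lower members. No member separated the S-type from the NR cells in either direction, where 0.206% of all genes did so upward and 0.206% downward.

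M-type cells lay between, with a median log2 ratio to NR of 0.45, 72 members higher and 8 lower, against -0.20 for all genes. At least 2-fold higher were 6 members (7.5%, where 19.8% of the 12616 genes tested were): Rpl28 (1.71), Rpl22l1 (1.47), Rps7 (1.12), Rpl12 (1.04), Rps27 and Rpl26. Rpl28 was highest in M-type cell 1, at 5060, against 340.4 to 1116 in the other M-type cells and 298.5 to 584.3 in NR. Rpl30, at -1.57 (-1.77 to -1.38), was the 1 member at least 2-fold lower (1.25%, where 28.1% of all genes were), followed by Rpl7l1 (-0.63) and the stalk protein Rplp2 (-0.29). No member separated the 2 types, where 0.277% of all genes did so upward and 0.325% downward. Without NR cell 4, the NR cell with the largest ribosomal protein share, the median was 0.77 and 23 members were at least 2-fold higher, and without M-type cell 1 the median was 0.07 with 3 such members. The share of all genes at least 2-fold higher was not computed with either cell left out.

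Over the 4 types and with size factors, T-type had the highest level of 67 of the 78 members at a mean level of at least 10. M-type was highest for 10, NR for 1 and S-type for none. NR was lowest for 41 and S-type for 30. The highest single cell was T-type cell 2 for 34 members, T-type cell 5 for 14, T-type cell 1 for 11, T-type cell 4 for 8 and M-type cell 1 for 5. These ranks depend on the size factors, and that of T-type cell 2 was 0.276. As a share of all reads its ribosomal protein genes took 4.80%, against 8.09% in M-type cell 1, 7.97% in T-type cell 5 and 5.57% in NR cell 4.

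By role, every group listed had a positive median log2 ratio in T-type against NR. The counts that follow stand beside 28.4% of all genes and 62% of the members at least 2-fold higher. On CPM these shares were 19.2% and 34.2%. The stalk that recruits the elongation factors (Rplp0 1.55, Rplp1 1.56, Rplp2 0.88, Rpl12 1.32 on the log2 scale) had 3 of 4 members at least 2-fold higher. Without T-type cell 2 Rplp1 was at 0.92 and Rplp2 at -0.09, which left 2 of 4. On CPM none of the 4 reached 2-fold (Rplp0 0.997, Rplp1 0.80, Rplp2 -0.07, Rpl12 0.82). Of the pair that carries the 5S RNA and binds Mdm2, Rpl5 was at 1.40 and Rpl11 at 0.93. All 5 proteins listed around the exit tunnel (Rpl4 1.34, Rpl17 2.16, Rpl39 1.41, Rpl23a 1.48, Rpl35 1.23) were at least 2-fold higher. On CPM Rpl39 was at 0.91 and Rpl35 at 0.75, both under 2-fold. Around the decoding centre and the mRNA entry, Rps23 and Rps15 (2.08) were at least 2-fold higher with size factors, and Rps2 (0.63) and Rps3 (0.99) were not. Without T-type cell 2 Rps3 was at -0.04. On the mRNA exit side Rps26 was at 1.13, Rps28 at 0.85 and Rpsa at 0.82. Rps6, the substrate of the S6 kinases, was at 0.65 with T-type levels of 469.1 to 5066, and Rps27a, made as a fusion to ubiquitin, at 0.47. The 4 X-linked members were all at least 2-fold higher: Rpl10 at 2.52, Rpl36a at 2.30, Rps4x at 1.98 and Rpl39 at 1.41. Without T-type cell 2 Rps4x was at 0.40, which left 3 of 4. On CPM Rps4x (0.72) and Rpl39 (0.91) were under 2-fold. Rpl10, which joins the large subunit late in its assembly, had 41300 and 21460 in T-type cells 1 and 2 but 2133 to 7489 in the other 4, against 892.4 to 4234 in NR, so it overlapped.

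As a fraction of ribosomal protein reads, a measure free of the overall scale, few members set T-type and NR apart. There were 2 that were lower in all T-type cells, where 2.26% of all genes tested were when divided by the same reads. Ribosomal protein reads had a larger mean share in T-type (5.44%) than in NR (3.27%), which lowers other genes on this measure. The shares of all genes are therefore not a like background for the members. Of the 2 members, Rps3a1 took 0.0598% to 0.997% of ribosomal protein reads in T-type and 1.03% to 2.06% in NR. No member was higher in all T-type cells, and 0% of all genes were. Against S-type no member was apart on this measure in either direction, where 1.46% of all genes were lower and 0% higher.

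Paralogs held very different places. Nearly all reads of the Rps27 pair, from 99.1% to 100% in a cell, fell to Rps27l, a paralog that p53 is known to induce. Per kb it had 15930 and Rps27 22.8. Rps27l had mean levels of 9021 in T-type, 8975 in M-type, 8625 in NR and 5466 in S-type, whereas Rps27 had 282 reads in all 22 cells together. M-type held 238 of these reads, most of them in cell 1, S-type 40, NR 3 and T-type 1, and 11 cells held none. Of the 75-base windows of the Rps27 transcript, 98.5% also occur in another annotated transcript, mostly of Rps27rt, against 12.0% for Rps27l, and only uniquely aligned reads were counted. The part of such shared sequence in the low Rps27 count was not tested. Over the 80 members the share of such windows had a Spearman correlation of -0.04 with the level per kb, a description across genes that share their cells. The windows were matched to transcripts of any other gene name, which includes read-through genes at the member's own place. The correlation therefore does not measure how many reads were lost to shared sequence.

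Among the paralogs within the rule, Rpl22l1 was the one whose share varied widely. It is known to be held down by the Rpl22 protein, and here it made up 10.1% to 85.2% of the reads of the pair in a cell. The share was 46.8% ± 16.5 (n = 6) in S-type, from 20.5% to 66.7% with a median of 46.4%, and 45.4% ± 25.4 (n = 6) in T-type, from 10.8% to 85.2% with a median of 45.0%. In M-type it was 36.7% ± 18.97 (n = 5), with cells at 16.7%, 63.8%, 45.0%, 36.6% and 21.3%, and in NR 26.9% ± 17.4 (n = 5), with cells at 55.6%, 28.3%, 19.4%, 20.9% and 10.1%. The types overlapped. Exact 95% intervals were narrow, from 84.8% to 85.7% in T-type cell 1. As a level, Rpl22l1 was 2.53 higher on the log2 scale in T-type than in NR, with T-type levels of 24540, 1197, 5727, 5726, 8304 and 7784 and NR levels of 2160, 1784, 993.1, 2343 and 417.2. Rpl22 itself was 0.93 higher, so the paralog had the larger ratio in the same cells, but T-type cell 2, at 1197, lay inside the NR range. Rpl22l1 also led S-type against NR among members at a mean level of at least 10, and followed Rpl28 in M-type against NR.

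Of the remaining pairs, Rpl7l1 made up 1.66% ± 2.19 of the Rpl7 and Rpl7l1 reads in T-type, 1.80% ± 1.55 in S-type, 2.21% ± 1.49 in M-type and 3.70% ± 4.11 in NR. Rpl3l, a muscle form of Rpl3, was read in 4 cells, with 262 of its reads in NR cell 2, too few cells to enter a comparison. No read was counted for Rpl10l and Rpl39l, both known from testis, which allows up to 3 reads over all cells for each. Rpl36al, a paralog of Rpl36a whose symbol lies outside the rule, took 35.4% ± 23.4 of the pair's reads in T-type, from 16.8% to 74.1%. In NR it took 47.3% ± 20.2, from 30.1% to 81.5%, so its share varied nearly as widely as that of Rpl22l1.

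**Figure D5:**
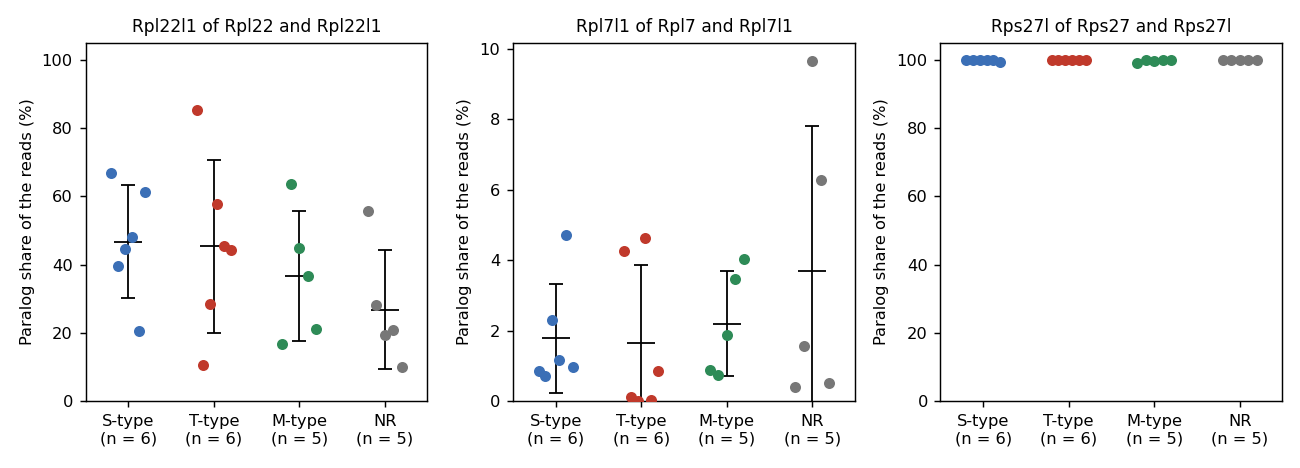
Share (%) of the paralog in the reads of a pair of main gene and paralog, 1 point per cell by response type, with the mean and SD between cells in black. Rpl22l1 ranges from 10.1% to 85.2%, Rpl7l1 reaches 9.67% at most and Rps27l is at 99.1% or more in every cell; the scale of the middle panel differs.

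Besides Rps27, 3 main genes had very low levels. Rpl26 was read in 7 cells, with 77 reads in S-type cell 1, 45 in M-type cell 5, 23 in T-type cell 5 and at most 8 elsewhere, and 57.5% of its windows are shared. For Rpl30, read in 21 cells, the levels ran from 0 to 291.9, with 65.1% of windows shared. Rpl34 ran from 22.5 to 813.6 with 30.5% shared. Rpl10 and Rpl5, with 91.9% and 92.5% of their windows shared, had 7362 and 7365 per kb.

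The levels of ribosomal protein genes varied together from cell to cell. The median Spearman correlation over the 22 cells was 0.51 for the 1081 pairs within the large subunit, 0.58 for the 465 pairs within the small subunit and 0.54 for the 1457 pairs between them. For pairs of genes at large whose mean level reached 1000 it was 0.004. These values describe cells that share their size factors and types. Rpl32 and Rps20 (each a median of 0.70 with the other members) followed the rest most closely, and Rpl7l1 (-0.03), Rpl30 (-0.02), Rpl34 (0.02) and Rpl22l1 (0.18) least. Over 1326 pairs of a member with a translation factor or other TOP gene the median correlation was 0.36. Over 4212 pairs of a member with a ribosome biogenesis gene it was 0.003.

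Other genes of translation were counted the same way. In T-type against NR the TOP list had a median log2 ratio of 1.26, with 13 of 18 genes at least 2-fold higher and 1 lower. Eef2, the translocase, was at 1.50, Eef1b2, an exchange factor, at 1.27, Tpt1 at 1.43, and Eef1a1, the most abundant elongation factor, at 0.64. Among ribosomal proteins whose symbols lie outside the rule, Fau was at 0.64 and the scaffold Gnb2l1, also called Rack1, at 0.54. Rpl36al was at 2.65, with a mean level of 13490 ± 23760 (SD, n = 6) in T-type and 2143 ± 1142 (n = 5) in NR. T-type cell 2 bore heavily on this mean. It held 17011 of the 38460 Rpl36al reads in T-type, at a size factor of 0.276, while T-type cell 5 held 13608 at 1.54. The ratio without T-type cell 2 was not computed for Rpl36al. The biogenesis list had a median of 0.46, with 21 of 55 genes at least 2-fold higher and 8 lower, shares to be read against the 28.4% and 32.8% of all genes. RNA polymerase I and its factors had -0.29, with 3 of 13 higher and 3 lower. In T-type against S-type the medians were 1.16, 0.01 and 0.13.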

How the data were processed

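Amplified antisense RNA of 22 single astrocytes was sequenced as stranded TruSeq libraries. The authors aligned reads to GRCm38 with STAR and deposited raw counts of uniquely aligned exonic reads per gene, 1 column per cell. The submitters' processing notes name STAR and HTSeq, and the study's methods name VERSE, which they describe as a modified HTSeq, as the counter. Versions and strand use are not given in the sources used here. The counts are whole numbers with 2937786 to 22131076 reads per cell, and each of the 22 columns was matched to its cell by title.

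Levels are counts over size factors from medians of ratios (NumPy 2.4.6, pandas 2.3.3, Python 3.11.15). A type without a read was set to a floor of 3 reads over its summed size factors, and no ratio was formed at 3 reads or fewer in both types. Genes read in 5 or more cells entered the 4 contrasts (12719 genes). With 1 sample per type no test, p-value or standard error was computed, and genes were read by a fixed 2-fold rule and by whether cells overlapped. Intervals of ratios (exact binomial split of the reads) and shares (exact binomial, SciPy 1.17.1) have 95% confidence and cover counting error only. TMM factors came from edgeR 4.0.16 (R 4.3.3). Positions, transcripts and 75-base windows were from GENCODE vM21, promoters from RefSeq (GRCm38.p6). Figures used matplotlib 3.10.9. On simulated counts with 200 changed genes of 12719, slopes of fitted on true log2 ratios were 0.995 to 1.005 over the contrasts. These counts were Poisson draws around the mean of each gene, without spread between cells. The slopes therefore check the calculation only and not the accuracy of the ratios in these cells.

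Genes were named by rule: per subunit the 3 highest and 3 lowest per kb, per contrast the 3 largest ratios each way at a mean level of at least 10 and every member whose cells stood apart, the 5 largest and smallest coefficients of variation, all paralogs with their main genes, and the role groups. Members, lists and rules were chosen with earlier results of these data known. The alternatives are in the closing section. Protein sequences were not used here. Some named genes are not reported here, in the text or the figures, though counts and medians include them.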

Additional observations from a re-analysis of the deposited data

Results flagged for a closer look

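Among 24 groups of values per cell (6 summary measures by 4 types), 1 value stood farther from the rest of its group than Dixon's 95% limit allows: large-subunit genes made up 37.7% of the ribosomal protein reads of T-type cell 2, with a gap to its nearest neighbour of 0.704 of the range of 6 cells, against a limit of 0.625. Chance gives about 1 such value in 20 groups. The same limit applied to the 78 members read in at least 5 cells at a mean level of at least 10, in each type, was passed in 54 of 312 groups. M-type cell 1 was the high value in 17 of these and T-type cell 2 in 15, among them Rps18, Rps20, Rps23 and Rps4x, so that the flags concentrate in few cells, and members measured in the same cell are not independent of each other. T-type cell 2 was also the cell with the fewest genes with a read (6319), and the part of this in its values was not tested.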

How the results depend on the processing

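No paired analysis was possible because the numbers of the cells only name them and no test was run. Other settings were tried one at a time (TMM factors, mean or pooled CPM, medians over cells, a pseudocount of 1, no filter, a minimum mean level of 10, cells thinned to 2937786 reads, paralogs left out, shares of pooled reads, and, chosen after seeing the data, T-type cells 2 and 3 left out together and the counts of members apart). They left 131 values within the spread between cells or within 1.5 times of a reported count, and moved 23. The median of S-type against NR, 0.09, was -0.01 with TMM factors, and every other median over the members kept its sign under these settings.

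For T-type against NR the 49 members at least 2-fold higher became 27 on mean CPM and 26 on pooled CPM. No member was at least 2-fold lower, and 1 was on mean CPM, on pooled CPM, with medians over cells, without a filter and without T-type cells 2 and 3. The 8 members apart became 5 with TMM factors, 1 on CPM and 18 without T-type cells 2 and 3. For T-type against S-type the median of 1.13 was 0.60 on mean CPM, and the 48 members higher became 14 on mean and 18 on pooled CPM. The 2 lower became 0 at a mean level of at least 10 and 1 after thinning, and the 6 apart became 2 with TMM factors and 1 on CPM. For S-type against NR the 3 higher became 1 at a mean level of at least 10. The 1 lower, there and in M-type against NR, became 0 with medians over cells and 2 without a filter. The 6 higher in M-type against NR became 10 with TMM factors. Among these settings the share of all genes at least 2-fold higher was computed on mean CPM only.

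Leaving out each cell in turn gave 243 values, of which 22 moved. The shares of all genes at least 2-fold higher or lower were not computed with a cell left out. For T-type against NR, 0 to 1 members were lower and 8 to 23 apart, with 23 without NR cell 4 and 15 without T-type cell 3, where 0.513% of all genes then were. For S-type against NR, 3 to 9 were higher (9 without NR cell 4) and 0 to 3 lower (3 without S-type cell 5 or NR cell 1), and the median ran from -0.09 to 0.50. For M-type against NR, 3 to 23 were higher, with 23 without NR cell 4, 16 without M-type cell 4, 13 without M-type cell 3, 10 without M-type cell 5 or NR cell 5 and 3 without M-type cell 1, and 0 to 1 lower. For T-type against S-type, 1 to 2 were lower (1 without S-type cell 1) and 6 to 10 apart (10 without S-type cell 5, where 0.21% of all genes then were). The causes were not tested. Depth limits Rpl26 and Rps27, whose ratios rest on few reads.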
